A study of Mus musculus with 6 samples.

Results

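Transcripts of 34 genes of the interferon response and of major histocompatibility complex (MHC) class I antigen presentation were followed in mouse islets. The genes were taken by symbol from a set list, which was chosen with earlier results of these data known. All 34 were found among the 55401 gene identifiers counted. By role they were 5 transcription factors, 3 RNA sensors, 16 interferon-stimulated effectors, and 10 genes of MHC class I and antigen processing.

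Interferons are secreted cytokines that bind receptors coupled to Janus kinases. Type I interferon leads to a complex of Stat2, Irf9 and a second STAT protein, which binds the interferon-stimulated response element (ISRE) in gene promoters, and type II interferon leads to a STAT dimer that binds the GAS element. The genes switched on restrict viruses and load peptides onto MHC class I at the cell surface. In islets, MHC class I and interferon-stimulated genes are widely studied for their part in how beta cells are recognised by T cells.

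The mice were male C57BL/6 animals aged about 20 weeks, and all of them carried floxed Pdgfra on both copies (Pdgfra fl/fl). The 3 control libraries were Pdx1-Cre-, and the 3 libraries labelled KO were Pdx1-Cre+, in which the promoter of Pdx1, a gene of the pancreatic lineage, drives Cre. No treatment beyond genotype is given. Mice with Cre and unfloxed Pdgfra were not analysed here, so Cre and the loss of Pdgfra cannot be told apart. In the count table the column of every KO library, and of no control, has an ending that no label explains, and whatever it marks cannot be told apart from genotype. Whether every library came from its own animal is not stated, so a p-value here reflects only how much these libraries varied.

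The libraries held 15026094 to 25299689 counts. Pdgfra, the targeted gene, was counted 42, 88 and 116 times in controls 1 to 3 and 93, 25 and 125 times in KO 1 to 3 (edgeR adjusted p = 0.869 for a log2 fold change of -0.26, 95% interval -1.03 to 0.50). A count over all exons includes transcripts that lack only the floxed part, so Pdgfra did not check the labels. The labels name beta cells and no sorting step, and the libraries held RNA of other cells. Markers of beta cells, 8 genes with Ins1 and Ins2 among them, summed to 94900 to 124000 CPM (read counts scaled to library size with TMM factors) in controls and 103000 to 146000 in KO. Those of acinar cells, 8 digestive enzyme genes, summed to 124000 to 323000 CPM in the controls and 109000 to 198000 in KO. As shares of raw counts, the acinar markers took 26.8%, 20.3% and 14.9% in controls 1, 2 and 3 and 20.3%, 17.3% and 11.4% in KO 1, 2 and 3. A ribosomal RNA locus took 3.32% to 4.51% in controls and 5.36%, 12.6% and 18.5% in KO 1, 2 and 3.

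The promoters of several effectors and of B2m carry the ISRE core, and stretches of them are shown because the core was common among the effectors and, in MHC class I, was found in B2m alone. The core was searched on both strands as GAAA, any 2 bases, GAAA, and matches were allowed to overlap. The windows ran from 250 bases before to 50 after the transcription start (RefSeq, GRCm38.p6), and 26 of the 34 genes matched the promoter table. Capitals mark the matches, and each sequence reads 5′ to 3′ on the strand of its gene. They lie at chr4:156200855-156200916 (minus strand) for Isg15, chr19:34640765-34640833 (plus) for Ifit1, chr19:34583353-34583436 (plus) for Ifit3, chr5:120907526-120907565 (minus) for Oas1a, chr12:26456543-26456592 (minus) for Rsad2, chr3:142620584-142620633 (plus) for Gbp2 and chr2:122147528-122147577 (plus) for B2m. All 7 stretches lie upstream of the RefSeq start. That of Gbp2 runs into the gene as drawn by the exon coordinates deposited with the counts (start 142620602).
Isg15: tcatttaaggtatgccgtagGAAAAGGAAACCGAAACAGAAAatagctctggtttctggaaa
Ifit1: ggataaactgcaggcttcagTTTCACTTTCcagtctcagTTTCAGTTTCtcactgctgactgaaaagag
Ifit3: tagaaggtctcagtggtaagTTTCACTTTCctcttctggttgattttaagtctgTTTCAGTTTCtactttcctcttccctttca
Oas1a: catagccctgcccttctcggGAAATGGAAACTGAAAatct
Rsad2: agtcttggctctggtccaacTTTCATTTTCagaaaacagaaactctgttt
Gbp2: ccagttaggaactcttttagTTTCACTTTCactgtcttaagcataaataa
B2m: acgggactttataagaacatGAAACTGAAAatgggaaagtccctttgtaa

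The core was present in 12 of the 26 genes (46.2%), against 1079 of 27025 genes in the whole promoter table (3.99%). It was in 8 of 11 effectors, in both RNA sensors with a window, in 1 of 5 transcription factors, which was Stat2, and in 1 of 8 genes of MHC class I, which was B2m. The stretch of Isg15 held 3 overlapping matches, and those of Ifit1 and Ifit3 held 2 separate ones each. The GAS core, read as TTC, any 3 bases, GAA, was present in 6 of the 26 genes (23.1%) and in 2582 of the 27025 (9.55%). Among those 6 were Irf1, at position -90 from the start, and Psmb8, at position -97. A match describes letters only, and its absence from a window says nothing about a factor.

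No member differed between the groups beyond the spread of the libraries. Of the 34 genes, 33 passed the filter on low counts, and 0 of these passed the edgeR quasi-likelihood test at an adjusted p under 0.05, with adjustment over the 14212 genes tested, against 0.0704% of all genes. At an unadjusted p under 0.05 the members also numbered 0, against 7.37% of all genes. DESeq2 and limma-voom called 0 members as well, with 0 at an unadjusted p under 0.05 by either, although DESeq2 gave no adjusted p for Isg15, Nlrc5 and Mx1. In 0 members did the 3 KO libraries lie clear of the 3 controls, while 13.9% of all genes had groups that did not overlap. Positive log2 fold changes (KO over control) were found in 20 of the 33, and 47.8% of all genes had one. The median log2 fold change was 0.02 over the members and -0.01 over all genes tested. The values ran from -0.31 for Irf3 to 0.55 for Ifit3, and the smallest adjusted p was 0.703.

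**Figure D1:**
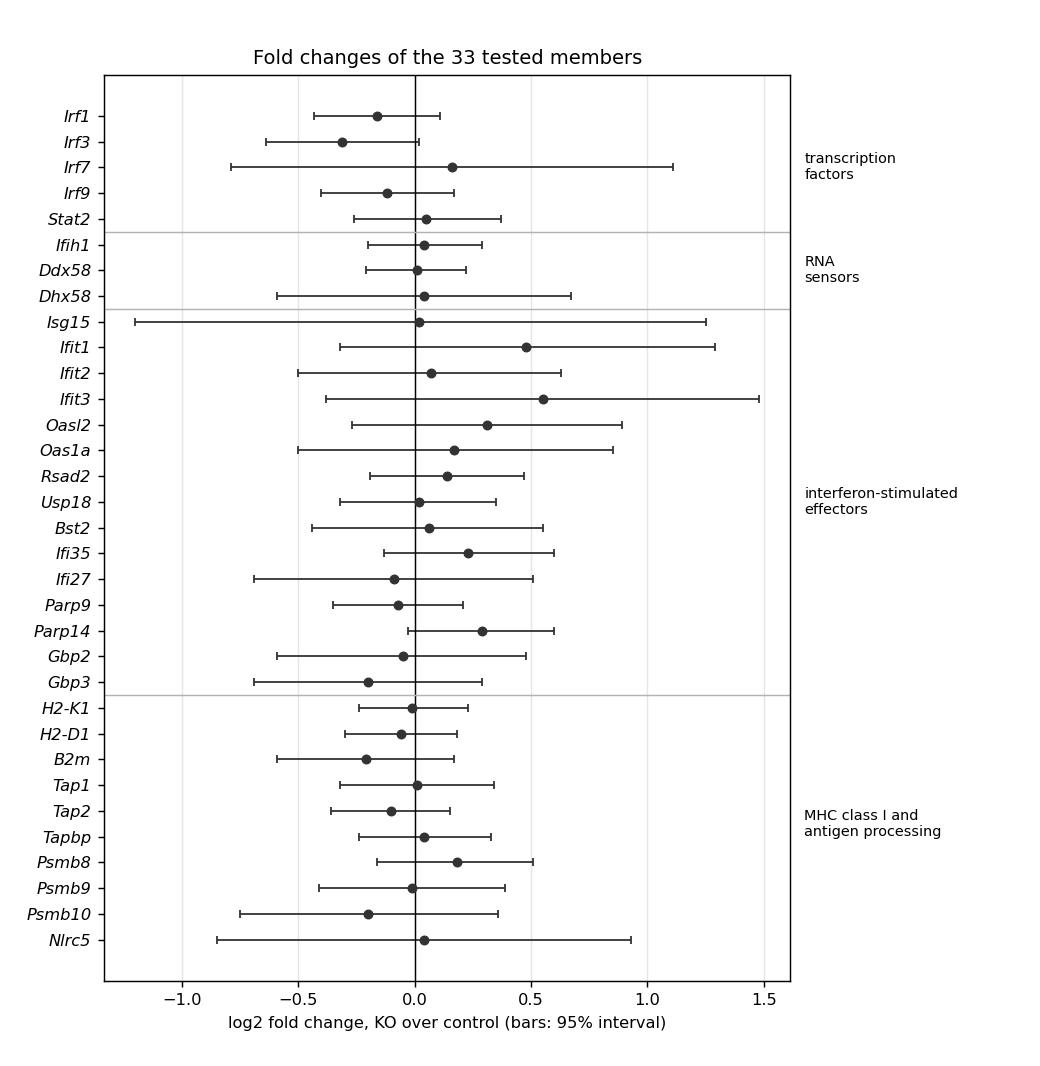
Log2 fold change of each tested member, KO over control (points), with its 95% interval from edgeR (bars), grouped by role. All 33 intervals include 0, from narrow ones such as Ddx58 (-0.21 to 0.22) to that of Isg15 (-1.20 to 1.25).

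A missed threshold does not show that levels were equal, and the intervals give what these 6 libraries could resolve. For 29 of the 33 members the 95% interval lay within 1 log2 unit of 0 in both directions, and for 14 within 0.5. The 4 with wider intervals were Irf7, Isg15, Ifit1 and Ifit3. The median standard error of the log2 fold change was 0.16 for the members and 0.15 for all genes.

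**Figure D2:**
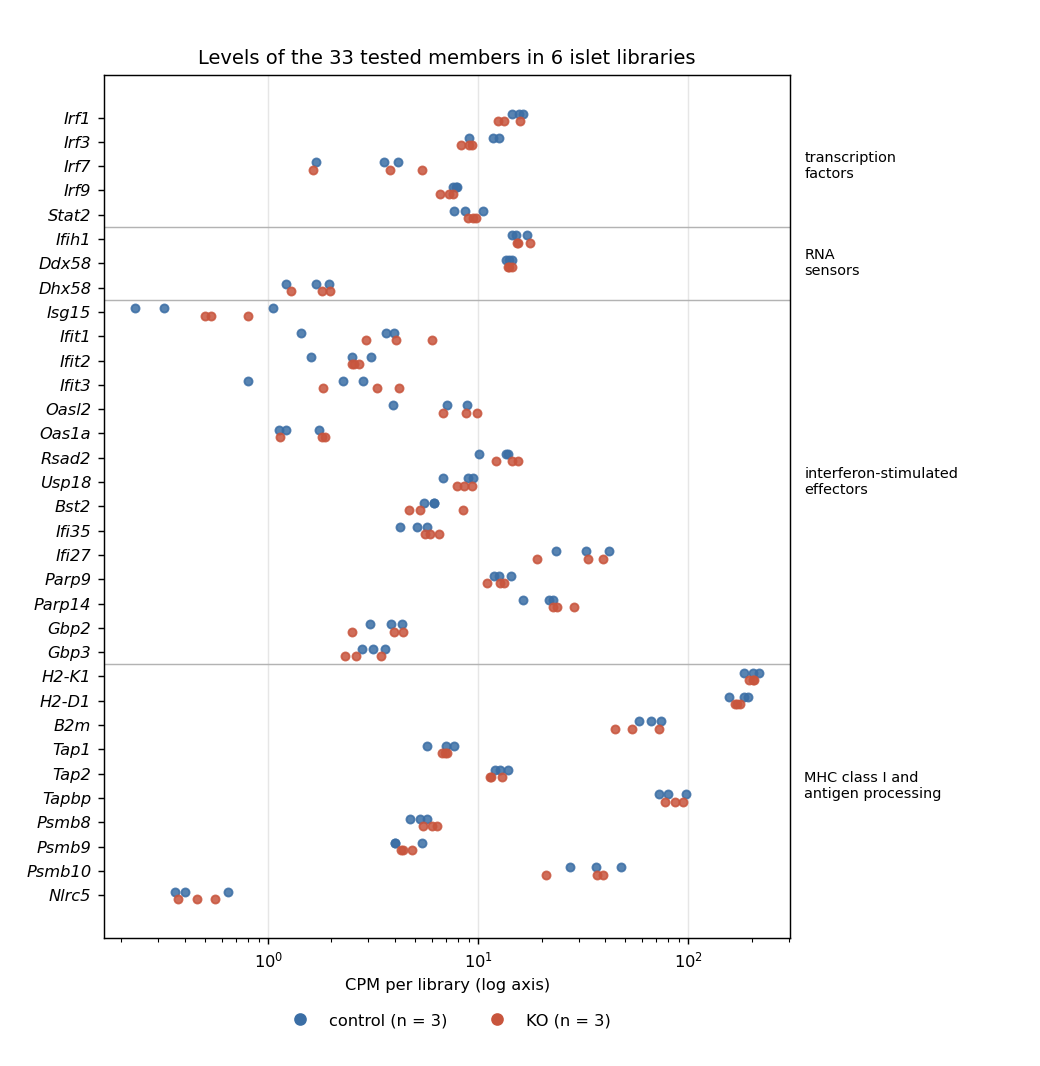
CPM of each tested member in each of the 6 libraries on a log axis, controls in blue and KO in red (n = 3 each). The ranges of the groups overlap for every one of the 33 members.

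The highest levels per exon length belonged to MHC class I. Averaged over the 6 libraries, the level was 71.7 CPM per kilobase for B2m, 68.2 for H2-K1 and 67.5 for H2-D1. Tapbp at 23.3, Ifi27 at 21.4 and Psmb10 at 20.3 CPM per kilobase came next. Each of the other 28 genes stood at or under 6.68 CPM per kilobase, the level of Bst2. Nlrc5 at 0.0549 and Mx1 at 0.0481 CPM per kilobase were at the bottom.

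Among the transcription factors, Irf3, which is present before stimulation and starts interferon production, had the lowest log2 fold change of all members. Irf3 (ENSMUSG00000003184.15, chr7:44997648-45002848, GRCm38) stood at 12.5, 11.7 and 9.03 CPM in controls 1, 2 and 3 and at 9.29, 8.98 and 8.26 in KO 1, 2 and 3. Controls 1 and 2 lay above every KO library, and control 3 lay within the KO range. The edgeR fit gave a log2 fold change of -0.31 with a 95% interval from -0.64 to 0.02 (SE 0.15, adjusted p = 0.703). Without control 3 it was -0.45, and without control 1 it was -0.22.

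Irf1, a factor induced by type II interferon that acts on MHC class I genes, had 15.6, 14.5 and 16.3 CPM in controls 1, 2 and 3 and 15.8, 13.3 and 12.4 in KO 1, 2 and 3. KO 2 and KO 3 were the lowest libraries and KO 1 lay among the controls. Its log2 fold change was -0.16 (SE 0.12, edgeR adjusted p = 0.788).

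Irf7, which amplifies type I interferon and is itself induced by it, varied 3.28-fold between its highest and lowest library. Its levels were 1.68, 4.14 and 3.56 CPM in controls 1, 2 and 3 and 5.37, 3.81 and 1.64 in KO 1, 2 and 3. Both groups held low and high libraries, and the low ones were control 1 and KO 3. The log2 fold change was 0.16 (SE 0.42, edgeR adjusted p = 0.943). Its direction rested on single libraries, at -0.09 without control 1, -0.28 without KO 1 and 0.53 without KO 3. With the level of the ribosomal RNA locus as a covariate it was 1.33 (SE 0.48, edgeR adjusted p = 1.0).

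Stat2 and Irf9 encode the partners of the type I complex that binds the ISRE. Stat2 had 7.70, 8.68 and 10.5 CPM in controls 1, 2 and 3 and 9.45, 8.92 and 9.78 in KO 1, 2 and 3, so that all KO libraries lay inside the control range. Its log2 fold change was 0.05 (SE 0.14, edgeR adjusted p = 0.946). Irf9 had a mean of 7.78 ± 0.203 CPM in the controls and 7.14 ± 0.542 in the KO libraries (SD, n = 3 per group), a log2 fold change of -0.12 (SE 0.13).

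Among the RNA sensors, the 2 most abundant per exon length varied little between libraries. Ddx58, the gene of RIG-I, which detects viral RNA ends, had 13.5, 14.0 and 14.4 CPM in controls 1, 2 and 3 and 13.8, 14.5 and 14.0 in KO 1, 2 and 3. The highest library exceeded the lowest by only 1.08-fold, the groups overlapped throughout, and edgeR gave a log2 fold change of 0.01 with a 95% interval from -0.21 to 0.22 (SE 0.10, adjusted p = 0.987). Ifih1, the gene of MDA5, which detects long double-stranded RNA, had 14.4, 15.1 and 17.0 CPM in the controls and 15.3, 17.7 and 15.4 in KO. No order of the groups was visible in it either (log2 fold change 0.04, SE 0.11, edgeR adjusted p = 0.941). Dhx58, the gene of LGP2, which modulates both sensors, had 1.62 ± 0.365 CPM in the controls and 1.69 ± 0.35 in the KO libraries (SD, n = 3 per group).

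The effectors had 11 positive and 4 negative log2 fold changes among the 15 tested, with a median of 0.07. Ifit1 and Ifit3, whose proteins bind viral RNA or assist in it, had the highest values, and they are described here because of those values. Ifit1 had 1.44, 3.96 and 3.62 CPM in controls 1, 2 and 3 and 6.05, 4.05 and 2.93 in KO 1, 2 and 3. Control 1 was the lowest library and KO 1 the highest, while the other 4 lay between 2.93 and 4.05 CPM with the groups mixed. The edgeR fit gave a log2 fold change of 0.48 with a 95% interval from -0.32 to 1.29 (SE 0.36, adjusted p = 0.788). Without control 1 it was 0.20, and with each library left out in turn it ran from 0.16 to 0.71.

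Ifit3 had 0.802, 2.27 and 2.83 CPM in controls 1, 2 and 3 and 3.28, 4.18 and 1.83 in KO 1, 2 and 3. Control 1 was again lowest, and KO 3 lay below controls 2 and 3. Its log2 fold change of 0.55 (SE 0.41, 95% interval -0.38 to 1.48, edgeR adjusted p = 0.788) became 0.24 without control 1 and 0.93 without control 3. Of the stretches of 50 bases in its transcripts, 51.2% also occur in Ifit3b, so the reads of these genes may have been split between them. Ifit2, a further gene of the family, stood at 2.40 ± 0.751 CPM in the controls and 2.59 ± 0.12 in the KO libraries (SD, n = 3 per group).

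Isg15, a ubiquitin-like protein that is joined to other proteins, rested on few counts: 4, 4 and 32 in controls 1, 2 and 3 and 20, 8 and 14 in KO 1, 2 and 3. As levels these were 0.321, 0.233 and 1.05 CPM in the controls and 0.801, 0.499 and 0.533 in KO. Control 3 was the highest library and controls 1 and 2 were the lowest, so the KO libraries all lay inside the control range. The edgeR fit gave a log2 fold change of 0.02 with a 95% interval from -1.20 to 1.25 (SE 0.55, adjusted p = 0.994). Without control 3 it was 1.17, and without control 1 it was -0.18. Usp18, the protease that removes Isg15 from proteins and damps the type I receptor, had a log2 fold change of 0.02 (SE 0.15).

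Bst2, the gene of tetherin, which holds budding virus at the cell surface, had 6.18, 6.12 and 5.53 CPM in controls 1, 2 and 3 and 8.41, 4.68 and 5.25 in KO 1, 2 and 3. The KO libraries lay on both sides of the controls, with a log2 fold change of 0.06 (edgeR adjusted p = 0.957, SE 0.22). Without KO 1 the value was -0.25 and without KO 2 it was 0.21, and with the ribosomal RNA covariate it was 0.57 (SE 0.26, edgeR adjusted p = 1.0).

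Ifi27, a small interferon-inducible membrane protein, had 41.8, 32.4 and 23.3 CPM in controls 1, 2 and 3 and 39.1, 33.1 and 19.0 in KO 1, 2 and 3. Both groups covered nearly the same range (log2 fold change -0.09, SE 0.27, edgeR adjusted p = 0.951). Within each group its libraries stood in the order of the acinar shares of raw counts given above, with the highest value in control 1 and the lowest in KO 3. In CPM, the scale of Ifi27, the summed acinar markers of KO 1 and KO 2 were nearly equal (198000 and 197000) and set no clear order. With the acinar markers as a covariate the log2 fold change of Ifi27 was 0.09 (edgeR adjusted p = 0.896). Leaving out control 1 or KO 3 turned it as well, to 0.13 and 0.17, and it was 0.27 (SE 0.40) with the ribosomal RNA covariate. Beyond these fits, the part of acinar RNA in its level was not tested. In bulk RNA, fewer cells of a type and less RNA per cell cannot be told apart.

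Parp14, an ADP-ribosyltransferase of the interferon response, had the smallest unadjusted p among the effectors, and it too is named for its value. It had 16.4, 21.8 and 22.6 CPM in controls 1, 2 and 3 and 23.6, 22.6 and 28.4 in KO 1, 2 and 3. Only KO 2 and control 3, equal as rounded, kept the groups from lying apart. The edgeR fit gave a log2 fold change of 0.29 with a 95% interval from -0.03 to 0.60 (SE 0.14, unadjusted p = 0.0696, adjusted p = 0.717). Without control 1 it was 0.16 and without control 3 it was 0.38, the lowest and highest values over the 15 alternatives. In 6 of these the unadjusted p was under 0.05, and the smallest adjusted p was 0.452 (edgeR with the replicate block). Its neighbour Parp9 had a log2 fold change of -0.07 (SE 0.12), and 458 of its exon bases overlap those of Dtx3l on the opposite strand.

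The other effectors had log2 fold changes from -0.20 to 0.31. Oasl2, a relative of the oligoadenylate synthetases, was at 0.31 (SE 0.26), and Ifi35 was at 0.23 (SE 0.16). Oas1a, an oligoadenylate synthetase whose product activates RNase L, was at 0.17 (SE 0.30), and 57.6% of its stretches of 50 bases also occur in Oas1g. Rsad2, the gene of viperin, which makes an antiviral nucleotide, was at 0.14 (SE 0.15). Gbp2 and Gbp3, guanylate-binding GTPases that attack vacuoles of pathogens, were at -0.05 (SE 0.24) and -0.20 (SE 0.22). Mx1, the gene of a GTPase that restricts influenza virus and is defective in C57BL/6 mice, was counted 2, 0 and 5 times in controls 1, 2 and 3 and 6, 6 and 4 in KO 1, 2 and 3, and was not tested.

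The classical MHC class I heavy chains had nearly level means. H2-K1 (ENSMUSG00000061232.16, chr17:33996017-34000347, GRCm38), which presents peptides to CD8 T cells, stood at 183, 203 and 217 CPM in controls 1, 2 and 3 and at 202, 205 and 193 in KO 1, 2 and 3. All KO libraries lay inside the control range. The log2 fold change was -0.01 (SE 0.10, edgeR adjusted p = 0.992), and its 95% interval allowed a fold of 0.846 to 1.17.

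H2-D1, the other classical heavy chain of this strain, had 156, 183 and 192 CPM in controls 1, 2 and 3 and 171, 175 and 166 in KO 1, 2 and 3. These too lay inside the control range, with a log2 fold change of -0.06 (edgeR adjusted p = 0.915, SE 0.11) and an interval of 0.812-fold to 1.14-fold. Of the stretches of 50 bases, 9.63% of those of H2-K1 and 12.8% of those of H2-D1 recur in other genes, so their counts hold some uncertainty.

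B2m, the light chain without which the heavy chains do not reach the surface, was more variable. It had 58.0, 73.9 and 66.6 CPM in controls 1, 2 and 3 and 72.7, 44.8 and 54.0 in KO 1, 2 and 3. KO 2 and KO 3 were below every control and KO 1 was close to the highest control. The log2 fold change was -0.21 (SE 0.17, edgeR adjusted p = 0.796), with an interval of 0.666-fold to 1.12-fold, and it was -0.42 without KO 1 and -0.06 without KO 2. With the ribosomal RNA covariate the direction turned, to 0.26 (SE 0.18, edgeR adjusted p = 1.0). KO 2, its lowest library, was also the lowest for summed markers of fibroblasts (37.5 CPM, against 127 to 266 in controls), endothelium (164 against 264 to 316), leukocytes (12.5 against 16.8 to 21.3) and macrophages (93.6 against 105 to 123). With the leukocyte markers as a covariate the log2 fold change of B2m was -0.20 (SE 0.11, edgeR adjusted p = 0.7). The part of leukocytes, fibroblasts, endothelium and macrophages in its level was not itself tested. Per exon length, H2-K1 stood at 0.893 ± 0.0797 of B2m in controls and 1.07 ± 0.262 in the KO libraries (SD, n = 3 per group), with 1.34 in KO 2 alone.

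**Figure D3:**
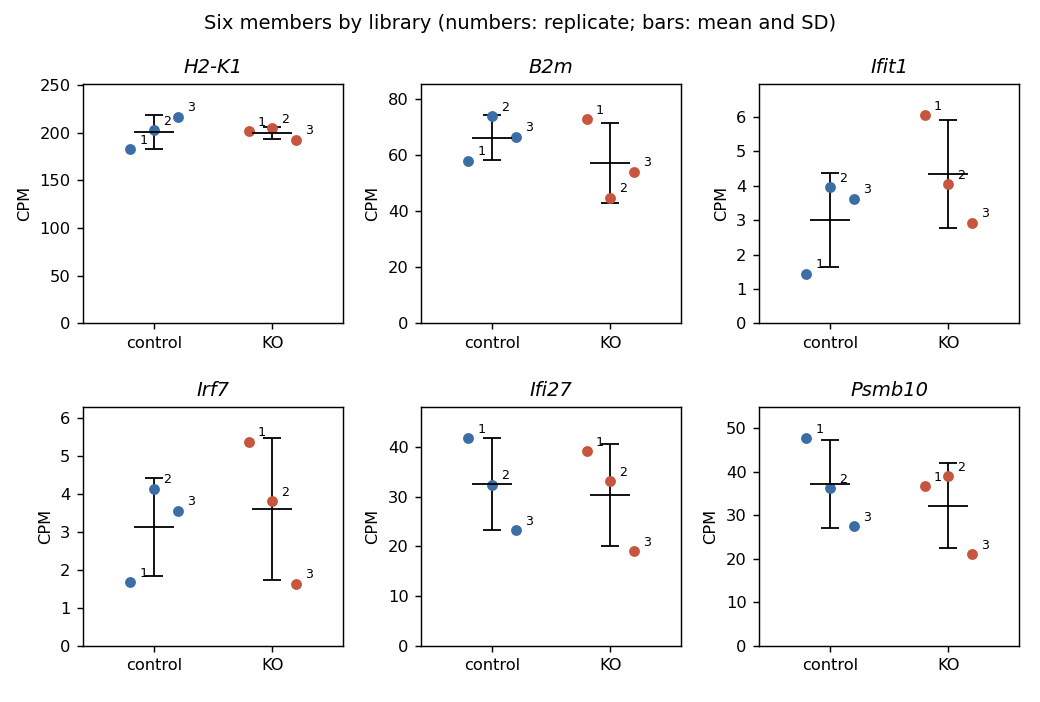
CPM of H2-K1, B2m, Ifit1, Irf7, Ifi27 and Psmb10 in each library (points, numbered by replicate), with the mean and SD of each group (n = 3). The 2 groups overlap in each panel. H2-K1 is nearly level across the 6 libraries, whereas Ifit1 is lowest in control 1 and highest in KO 1.

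Nlrc5, the transactivator of MHC class I promoters, was scarce. It was counted 5, 11 and 11 times in controls 1, 2 and 3 and 14, 6 and 12 in KO 1, 2 and 3, or 0.401, 0.641 and 0.362 CPM and 0.561, 0.374 and 0.457 CPM. The groups covered like ranges, and the log2 fold change of 0.04 carried an SE of 0.40 (edgeR adjusted p = 0.985) and ran from -0.18 without control 3 to 0.32 without control 2.

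Tap1 and Tap2 form the transporter that brings peptides into the endoplasmic reticulum, and Tapbp, the gene of tapasin, bridges it to MHC class I. Their log2 fold changes were 0.01 (SE 0.15), -0.10 (SE 0.11) and 0.04 (SE 0.13). Exons of Tap1 and Psmb9 overlap by 212 bases on opposite strands, and 149 bases of Tapbp are shared with Zbtb22 on the same strand, so reads there could belong to either gene.

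Psmb8, Psmb9 and Psmb10 are the catalytic subunits of the immunoproteasome, which replace Psmb5, Psmb6 and Psmb7 of the standard proteasome. Per exon length, Psmb8 stood at 0.0524 ± 0.00919 of Psmb5 in controls and 0.0685 ± 0.0190 in KO, and Psmb9 at 0.0554 ± 0.0105 of Psmb6 in controls and 0.0623 ± 0.00853 in the KO libraries (SD, n = 3 per group). Psmb10 differed from them, at 2.88 ± 0.543 of Psmb7 in controls and 2.85 ± 0.688 in KO. The groups overlapped in each ratio. In all 6 libraries, then, Psmb10 exceeded its standard partner per exon length, while the other 2 were far below theirs. Exon lengths in bases were 3381 for Psmb8 and 899 for Psmb5, 3660 for Psmb9 and 1872 for Psmb6. They were 1705 for Psmb10 and 3421 for Psmb7, so these lengths set part of each ratio. In CPM alone, control means were 5.23 for Psmb8 and 26.9 for Psmb5, and 37.1 for Psmb10 and 25.6 for Psmb7. Those of Psmb9 and Psmb6 were 4.48 and 41.4. In KO 3, Psmb10 at 21.0 CPM and Psmb7 at 20.4 CPM nearly met.

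Psmb10 itself, named here for that level, had 47.7, 36.2 and 27.4 CPM in controls 1, 2 and 3 and 36.6, 39.0 and 21.0 in KO 1, 2 and 3. As for Ifi27, control 1 was highest and KO 3 lowest, which were also the libraries with the highest and the lowest share of acinar marker counts. Within KO the order differed from that of the raw shares, since Psmb10 was highest in KO 2 and the acinar share in KO 1. In CPM, the scale of Psmb10, the summed acinar markers of KO 1 and KO 2 were nearly equal (198000 and 197000) and set no clear order. The log2 fold change of Psmb10, -0.20 (edgeR adjusted p = 0.864, SE 0.25), was -0.03 (edgeR adjusted p = 0.961) with the acinar markers as a covariate. Without control 1 it was 0.02. The part of acinar RNA in the level of Psmb10 was not tested further. Psmb8 and Psmb9 had log2 fold changes of 0.18 (SE 0.15) and -0.01 (SE 0.18).

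The libraries of a group differed among themselves in a way that many members shared. Control 1 was the lowest library in 17 of the 33 members, including 8 of the 15 effectors and 6 of the 10 genes of MHC class I. Its median deviation from each member's mean over the 6 libraries was -0.14 on the log2 scale, and -0.29 over the effectors. Control 3 was highest in 11 members, with a median deviation of 0.13, and KO 3 was lowest in 8. The same counts were not made over all genes tested, so they do not show a trait particular to the members. Control 1 also had the lowest total count and the highest acinar share. With the acinar markers as a covariate the log2 fold changes were 0.47 for Ifit1, 0.54 for Ifit3 and 0.28 for Oasl2, close to those without it, and 17 members had a positive value. That fit gives only the genotype effect. The part of acinar RNA and of the total count in the low values of control 1 was not tested. Without control 1 the members with a positive log2 fold change numbered 12 instead of 20, and Oasl2 went from 0.31 to 0.07. Without control 3 they numbered 23, and Oasl2 was at 0.59.

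**Figure D4:**
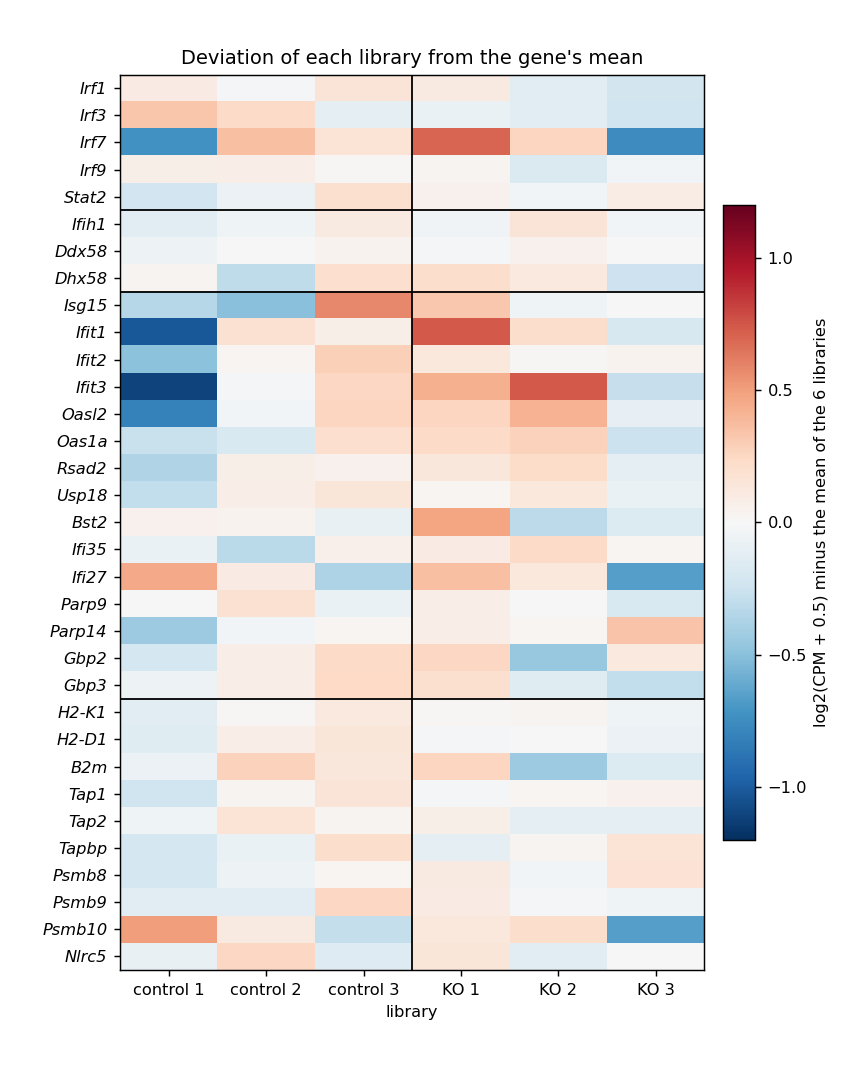
Deviation of each library's log2(CPM + 0.5) from the mean of the 6 libraries, for each tested member (rows, grouped by role) and library (columns). Control 1 is low (blue) for Ifit1, Ifit3 and Oasl2 and high for Ifi27 and Psmb10, and Irf7 is low in both control 1 and KO 3.

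The genes around the members in the pathway were read in the same fit, and none of them passed the test. The 8 interferon genes read, among them Ifnb1 and Ifng, had 0 counts in all 6 libraries, where 3 counts would amount to 0.119 to 0.2 CPM on unscaled totals. Of 12 receptor and kinase genes, 11 were tested, with 4 positive and 7 negative log2 fold changes. The receptor chains had log2 fold changes of 0.07 (SE 0.12) for Ifnar1, -0.16 (SE 0.12) for Ifnar2, -0.10 (SE 0.11) for Ifngr1, -0.03 (SE 0.17) for Ifngr2, -0.31 (SE 0.44) for Ifnlr1 and -0.05 (SE 0.17) for Il10rb. All of these receptor groups overlapped.

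Of 15 genes of nucleic acid sensing and relay, 14 were tested, and 0 passed. Trim25, a ubiquitin ligase that activates RIG-I, was the only one at an unadjusted p under 0.05, which 7.37% of all genes reached. It had 59.3, 55.5 and 56.2 CPM in controls 1, 2 and 3 and 64.3, 63.3 and 67.3 in KO 1, 2 and 3, every KO library lying above the controls. The log2 fold change was 0.19 (SE 0.08, unadjusted p = 0.048, edgeR adjusted p = 0.674). Traf3, an adaptor that relays the signal, was next with 0.21 (SE 0.10, edgeR adjusted p = 0.712).

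Of 48 further interferon-stimulated genes, 35 were tested, 0 passed, and 20 log2 fold changes were positive and 15 negative, with a median of 0.08. At an unadjusted p under 0.05, 687 of all 14212 genes tested were higher and 361 lower in KO, together 7.37%. Among the 35, 1 was higher and 3 were lower. The higher one was Oas2, an oligoadenylate synthetase, with 1.28, 1.17 and 1.55 CPM in the controls and 2.36, 2.12 and 1.67 in KO (log2 fold change 0.60, SE 0.25, edgeR adjusted p = 0.674). Its KO libraries lay above the controls. Ifitm2, which blocks entry of viruses at membranes, had 12, 12.6 and 10.6 CPM in controls 1, 2 and 3 and 9.77, 7.05 and 8.10 in KO 1, 2 and 3, with every KO library below the controls. Its log2 fold change was -0.49 (SE 0.15, unadjusted p = 0.00821, edgeR adjusted p = 0.542). Ifitm3, of the same family, had 42.3, 31.8 and 26.1 CPM in the controls and 29.4, 15.3 and 17.1 in KO, with KO 1 within the control range (log2 fold change -0.68, SE 0.25, edgeR adjusted p = 0.618). Ifitm2 and Ifitm3 were both lowest in KO 2, the library lowest for the summed fibroblast and endothelial markers, and the part of those cells was not tested. The other lower gene was Isg20, an RNA exonuclease, at -0.26 (SE 0.11, edgeR adjusted p = 0.678).

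Of 15 genes of peptide loading and nonclassical MHC class I, 14 were tested and 0 passed, with a median log2 fold change of 0.00. The smallest p belonged to H2-T22, a nonclassical MHC class I gene, at 30.7, 27.0 and 28.7 CPM in the controls and 25.1, 26.9 and 21.7 in KO (log2 fold change -0.23, SE 0.11, edgeR adjusted p = 0.689). Its KO libraries all lay below the controls, though KO 2 and control 2 nearly met. The standard subunits Psmb5, Psmb6 and Psmb7 had log2 fold changes of -0.17 (SE 0.15), -0.15 (SE 0.11) and -0.19 (SE 0.10). All 7 genes of MHC class II, which belongs to antigen-presenting cells, were tested, and 0 passed, with a median log2 fold change of 0.07.

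Markers of immune cells, which also carry these transcripts, were near 0 for T and NK cells and plainly present for macrophages. The 6 markers of T and NK cells summed to 0 to 0.428 CPM in the controls and 0.187 to 0.609 in KO, none of them was tested, and none was at 0 in all 6 libraries. The 5 leukocyte markers, Ptprc among them, summed to 16.8 to 21.3 CPM in the controls and 12.5 to 21.2 in KO, and 0 of 5 passed. The 9 macrophage markers summed to 105 to 123 CPM in the controls and 93.6 to 113 in KO. C1qa, the largest of them, was highest in KO 2 (47.4 CPM), whereas Adgre1, Csf1r, Cd68, Mrc1, C1qb, C1qc and Lyz2 were lowest there. Of the 9 log2 fold changes, 2 were positive and 7 negative, with a median of -0.20. None of the 9 passed, and Lyz2 was at an unadjusted p of 0.0302 (log2 fold change -0.50, edgeR adjusted p = 0.648). The 5 markers of B and plasma cells summed to 2.01 to 5.4 CPM in the controls and 4.49 to 7.50 in KO, 2 of them were tested, and 0 passed. Of these, Jchain, of plasma cells, had a log2 fold change of 1.64 (SE 0.59, unadjusted p = 0.0206, edgeR adjusted p = 0.6), and Ms4a1, of B cells, was not tested at 4, 6 and 18 counts in controls 1, 2 and 3 and 1, 0 and 0 in KO 1, 2 and 3. The 5 dendritic cell markers summed to 4.81 to 6.29 CPM in the controls and 3.37 to 6.33 in KO, and 0 of the 3 tested passed. The part of macrophages, dendritic cells and B and plasma cells in the members' levels was not tested. With the leukocyte markers as a covariate, 0 members were called, as without it. That fit gives the genotype effect and does not test the part of leukocytes in the members' levels.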

How the data were processed

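RNA of 6 islet libraries, 3 control and 3 KO by genotype label, was prepared for sequencing with an mRNA kit, as the labels' protocols say. The authors deposited raw read counts per gene, with the summed exon length of each gene. Per the submitters' processing notes, the aligner was STAR 2.7.9, reads were counted by featureCounts 2.0.0, and the builds named are GRCm38.p6 and mm10. Not given in the sources used here were the strand setting, the annotation release and how multi-mapping reads were handled. Of the 55401 identifiers, 55141 were given a symbol, 54349 of them matched with their version, and 107 that shared a symbol were set aside.

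Counts were tested with edgeR 4.0.16 (glmQLFit and glmQLFTest, R 4.3.3, two-sided) after TMM scaling, in a design with genotype alone. Low genes were removed by filterByExpr (count minimum 10, total minimum 15). Benjamini-Hochberg adjustment covered the 14212 genes left, and calls were made at 0.05. The common biological coefficient of variation was 0.140. Levels are CPM on TMM-scaled library sizes, and CPM per kilobase divides by exon length. Members without a promoter in the RefSeq table numbered 8. Shared stretches came from GENCODE vM21 transcripts, and exon overlaps from the exon coordinates deposited with the counts. The test was checked on simulated data. The alternatives were RLE scaling, no filter, a replicate block, each library left out, DESeq2 1.42.0, limma-voom (limma 3.58.1), covariates for acinar markers, leukocyte markers or the ribosomal RNA locus CT010467.1, and removal of acinar and ribosomal RNA genes. Tables and figures used Python 3.11.15, pandas 2.3.3, NumPy 2.4.6 and matplotlib 3.10.9.

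Described in full are Irf1, Irf7, Stat2, H2-K1, H2-D1, B2m, Isg15 and Nlrc5, the members of each role with the highest levels per exon length (2 per role), and any member with an unadjusted p under 0.05 or groups apart. Of each surrounding list up to 4 genes with the smallest p, and the receptor genes, could be named. The members and all lists were chosen with earlier results of these data known.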

Additional observations from a re-analysis of the deposited data

How the results depend on the processing

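Members called stayed at 0 in all 15 alternatives, with at most 4 at an unadjusted p under 0.05 (no filter on low counts) and a smallest adjusted p of 0.452 (Parp14, replicate block). Over all genes, calls changed from 10 to 300 (174 higher and 126 lower) without the filter, 51 (21 and 30) with DESeq2, 43 (14 and 29) with the acinar covariate, 6 with limma-voom and 0 with the ribosomal RNA covariate, and to 2 to 6 with each library left out. With the replicate block they numbered 36 (11 higher and 25 lower). Same-numbered libraries deviated together with correlations of 0.197, -0.188 and 0.160, and other pairs with -0.269 to 0.181. With only 3 libraries per group, these correlations cannot decide whether a control and a KO library of one number belong together. Beyond the fit with the replicate block, this was not tested. Positive log2 fold changes numbered 12 (without control 1) to 23 of 33 with each library left out, and 28 with the ribosomal RNA covariate. That covariate moved the members' median from 0.02 to 0.23, while the median of all genes stayed at -0.01. Under it Ifit1 was at 1.45 (SE 0.43), Irf7 at 1.33 (SE 0.48) and B2m at 0.26 (SE 0.18), each at an edgeR adjusted p of 1.0. The locus took more counts in every KO library than in any control, so its effect and that of genotype are hard to separate in 6 libraries, and the cause was not tested. With each library left out, the median ran from -0.05 to 0.12. Over 194 pairs of the 13 named members and an alternative, 0 passed the threshold and 25 changed sign. Depth limits Isg15, Nlrc5 and Mx1 most, with at most 32 counts in any library.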
